A study of Mus musculus with 8 samples.

Results

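Aldehyde dehydrogenases are the NAD- or NADP-dependent enzymes that oxidise aldehydes to carboxylic acids, and 10 of their genes in mouse liver are described here: Aldh1a1, Aldh1a7, Aldh1b1, Aldh1l1, Aldh2, Aldh3a2, Aldh4a1, Aldh6a1, Aldh7a1 and Aldh8a1. The genes were taken as a list by name, and 10 of 10 had reads in every library and passed the filter on low counts; they are 10 of the 34547 genes in the files and of the 13678 tested. The 4 Nudt7 livers came from C57BL/6J mice given, by tail vein at 8 weeks of age, 2.5e+11 particles of adeno-associated virus, used to bring a gene into hepatocytes, with mouse Nudt7 as its cargo. The 4 GFP livers came from C57BL/6J mice given the same dose of virus carrying green fluorescent protein. All 8 mice carried a virus and were fasted for 24 h before the liver was collected, 3 to 4 weeks after injection, at 11 to 12 weeks of age; the promoter in the vector is not given in the sources used here. Nudt7 encodes a peroxisomal hydrolase of coenzyme A (CoA) and acyl-CoAs, and the comparison asks what its overexpression does to the RNA of the fasted liver.

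In liver the family divides by substrate and compartment. Cytosolic class 1 enzymes take retinaldehyde and lipid-derived aldehydes, mitochondrial enzymes take the acetaldehyde made from ethanol, and a membrane-bound enzyme of the endoplasmic reticulum and peroxisome takes long-chain fatty aldehydes. Other members act in routes of amino acid or folate breakdown. Among these, Aldh6a1 hands its product to CoA and so makes an acyl-CoA in place of a free acid.

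The members share a catalytic cysteine. A search of the translated main coding transcript of each gene (GENCODE M21, GRCm38) for the 12-residue family pattern around it found 1 match in each of 9 genes. In Aldh7a1 that pattern had 0 matches, its core (glycine, glutamine or glutamate, any residue, cysteine) had 1, and the sequence is not shown. The 33 coding bases around it are printed, 5′ to 3′, because they show what the family has in common and where its branches part; the cysteine codon is in capitals.
Aldh1a1: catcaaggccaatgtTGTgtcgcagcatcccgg
Aldh1a7: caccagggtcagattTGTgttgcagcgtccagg
Aldh1b1: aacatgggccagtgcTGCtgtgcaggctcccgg
Aldh2: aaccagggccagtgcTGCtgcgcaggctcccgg
Aldh1l1: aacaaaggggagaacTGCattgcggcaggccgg
Aldh3a2: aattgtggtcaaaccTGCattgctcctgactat
Aldh4a1: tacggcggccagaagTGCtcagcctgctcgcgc
Aldh6a1: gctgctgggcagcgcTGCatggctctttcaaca
Aldh8a1: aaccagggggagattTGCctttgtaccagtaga
Aldh1a1 and Aldh1a7 use the codon TGT, and the other 7 printed genes use TGC. The codon was number 303 in Aldh1a1 and Aldh1a7, 321 in Aldh2 and Aldh1b1, 241 in Aldh3a2 and 707 in Aldh1l1, whose protein carries a further folate-binding part before the dehydrogenase. Over the aligned coding bases, with gaps left out, Aldh1a1 and Aldh1a7 were the closest pair at 91.6% identity. Aldh1b1 and Aldh2 followed at 69.4% of 1413 aligned bases. The 144 gap positions of that pair are the bases by which the coding sequence of the transcript used, Aldh2-202 (1413 bases), is shorter than that of Aldh1b1-201 (1557 bases).

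Levels between genes were compared in TPM, Salmon's share of transcripts, a scale that corrects for transcript length. Aldh2 was the most abundant member at 1218 ± 91.4 TPM in GFP livers and 1391 ± 255 TPM in Nudt7 livers (SD, n = 4 each, as for every mean below). Aldh1a1 (305 ± 66.5 TPM in GFP livers), Aldh3a2 (269.9 ± 20.3), Aldh1l1 (265 ± 48.3) and Aldh7a1 (196 ± 33.5) followed, and each of these overlapped its neighbour in the order, so their ranking is not resolved. Aldh6a1 stood at 164 ± 14.5 TPM, Aldh8a1 at 127 ± 10.9, Aldh4a1 at 55.1 ± 10.7, Aldh1a7 at 52.1 ± 8.79 and Aldh1b1 at 7.73 ± 3.55 TPM in GFP livers. In both groups Aldh2 lay above every other member in every liver and Aldh1b1 below. The means of Aldh4a1 and Aldh1a7 exchanged places between the groups, but their ranges overlapped in each group, so their order is not resolved. The 10 genes together held 2446 to 2942 TPM in GFP livers and 2690 to 3407 TPM in Nudt7 livers, and these ranges overlapped.

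**Figure D1:**
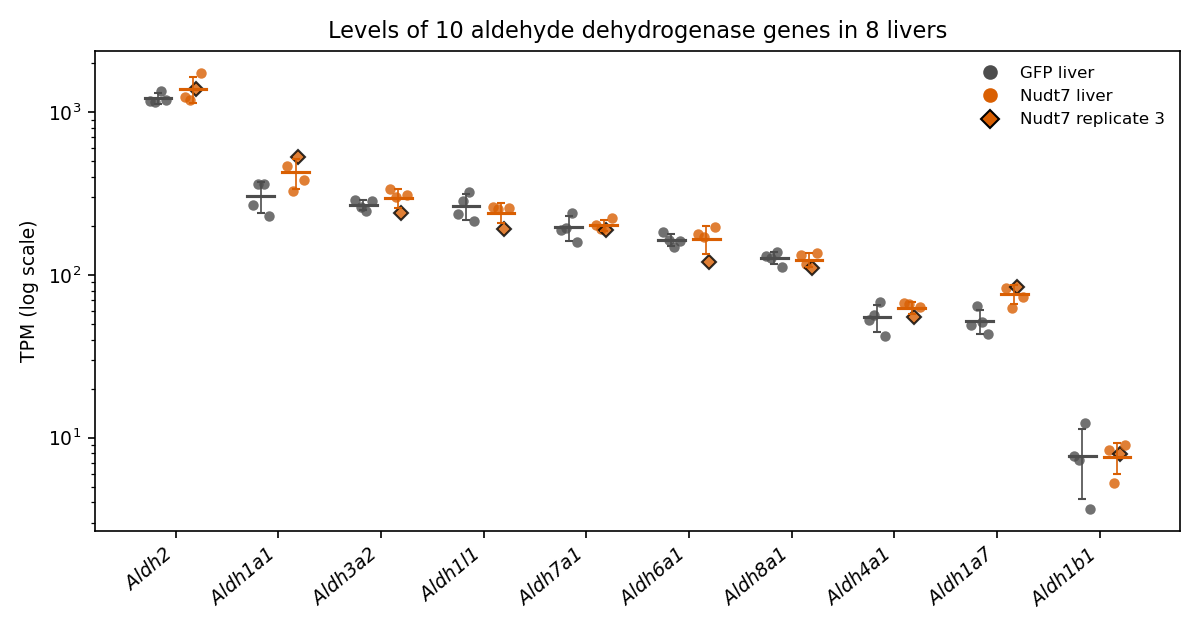
TPM of each gene (log axis) in 4 GFP and 4 Nudt7 livers, with group mean and SD; the diamond is Nudt7 replicate 3. Aldh2 lies near 1218 TPM in GFP livers, 6 genes lie between Aldh1a1 at 305 and Aldh8a1 at 127 TPM, and Aldh1b1 is lowest at 7.73 TPM.

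Libraries held 11187806 to 23640734 estimated reads, and Nudt7 itself stood at 1301 to 3569 CPM (reads scaled to a common library size after edgeR's TMM) in Nudt7 livers against 60.7 to 79.9 CPM in GFP livers. Nudt7 replicate 3 stood apart: it had the highest Nudt7 level, lay at 63.1 on the first principal component where the other 7 libraries lay between −19.9 and 2.83, and was shifted by 0.42 log2 units for genes with short transcripts and by −0.36 for genes with long ones relative to the other Nudt7 libraries (medians). It also held the most red blood cell RNA (summed markers 1814 CPM against 303 to 642 CPM in the other 7 libraries; 6 of 6 markers had a higher mean in Nudt7 livers) and cholangiocyte RNA (315 CPM against 139 to 189.9 CPM; 8 of 10 higher). Its summed Kupffer cell (366 CPM) and lymphocyte markers (9.31 CPM) were the highest of the 8 libraries as well. Cholangiocyte markers summed to 156 CPM or more in each Nudt7 liver and to 153 CPM or less in each GFP liver. Of these 10 markers, 7 passed the filter on low counts, and the groups did not overlap for 1 of them. The marker Spp1 had a log2 fold change of 1.13 in edgeR (adjusted p = 0.105). Its adjusted p was 0.000913 in DESeq2, and 0.0204 when limma-voom weighted the samples. In both fits it was the only marker of this list that passed 0.05. The 10 hepatocyte markers, Alb among them, were all detected and summed to 73030 to 100900 CPM in Nudt7 livers and 86980 to 105800 CPM in GFP livers, with 3 of 10 higher on average in Nudt7 livers. Among the hepatocyte markers, Tat had a log2 fold change of −0.85 in edgeR (adjusted p = 0.225). Its adjusted p was 0.0162 in DESeq2, and 0.0244 when limma-voom weighted the samples. The part of these cell markers in the members' values was not tested. Replicate numbers only name livers, and p-values set the group difference against the spread between mice. In whole liver, fewer cells of a type and less RNA per cell cannot be told apart.

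In Nudt7 livers 0 of the 10 members rose and 0 fell in edgeR's quasi-likelihood test (adjusted p under 0.05 over all 13678 genes), where 0.117% of all genes tested passed, 0.0439% as higher and 0.0731% as lower. The fold changes of all 10 were positive, from 0.02 for Aldh1l1 to 0.71 for Aldh1a7 on the log2 scale, with a median of 0.23 beside −0.00089 over all genes tested, of which 49.8% were positive. Aldh1a7, Aldh1a1 and Aldh4a1 had an unadjusted p under 0.05, against 8.28% of all genes and 4.25% that did so with a positive fold change (4.99% among genes at least as abundant as Aldh1b1, the scarcest member). For Aldh1a7, Aldh4a1 and Aldh3a2 the lowest Nudt7 liver was above the highest GFP liver in CPM, as for 2.74% of all genes tested (5.75% without overlap in either direction) and 3.62% of those at least as abundant as Aldh1b1. DESeq2 called 1 member, Aldh1a7 (adjusted p = 0.0413), beside 1.12% of all genes (0.636% higher); limma-voom called 0 members beside 0.0731% (0.0366% higher and 0.0366% lower), and limma-voom with sample weights 0 beside 0.731%. In TPM as deposited, 0 members were higher in every Nudt7 liver than in every GFP liver, beside 1.05% of all genes. A limma fit of log2(TPM + 1) placed the median of all genes at −0.10 and that of the members at 0.10, with 8 of 10 positive; there Aldh1l1 (−0.13) and Aldh8a1 (−0.04) were below 0.

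**Figure D2:**
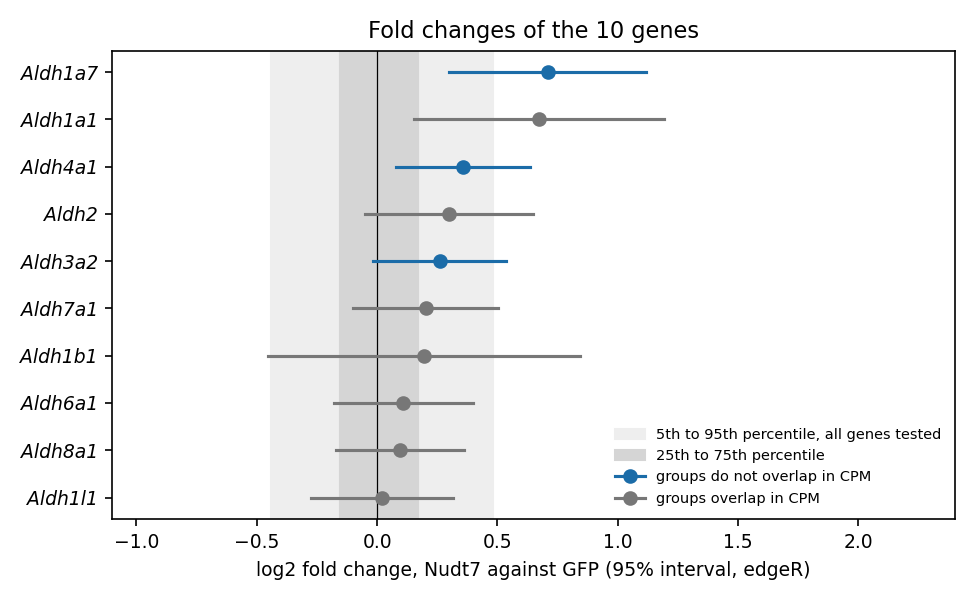
Log2 fold change of each gene, Nudt7 against GFP livers, with its 95% interval (edgeR, 4 livers a group), over the central 50% and 90% of all 13678 genes tested. The intervals of Aldh1a7, Aldh1a1 and Aldh4a1 lie above 0, and all 10 estimates lie between 0.02 and 0.71.

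The cytosolic class 1 pair, Aldh1a1 and Aldh1a7, had the largest differences of the 10. Aldh1a1 encodes a retinaldehyde dehydrogenase that makes retinoic acid and also clears lipid aldehydes; it lies on chromosome 19 (20492715 to 20643465, plus strand, GRCm38), and 97.5% to 99.3% of its TPM came from the transcript Aldh1a1-201, which starts at 20601961. Aldh1a1 was at 610, 435, 954 and 498 CPM in Nudt7 replicates 1 to 4 and at 341, 459.8, 454 and 315 CPM in GFP replicates 1 to 4. Nudt7 replicate 3 was by far the highest liver, and Nudt7 replicate 2 lay below GFP replicates 2 and 3, so the groups overlapped. The means were 624 ± 231 and 392 ± 75.4 CPM, a log2 fold change of 0.67 (SE 0.24, 95% interval 0.15 to 1.19, edgeR adjusted p = 0.470). Without Nudt7 replicate 3 the difference was 0.40 (SE 0.16, adjusted p = 0.499). That liver was also the highest in summed markers of red blood cells, cholangiocytes, Kupffer cells and lymphocytes, at 1814, 315, 366 and 9.31 CPM.

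Aldh1a7 encodes a cytosolic enzyme closely related to Aldh1a1 and lies on the same chromosome (20692953 to 20727562, minus strand), with a single transcript in the files. It was at 112, 86.4, 157 and 98.2 CPM in Nudt7 replicates 1 to 4 and at 65.0, 84.9, 66.6 and 61.2 CPM in GFP replicates 1 to 4. Every Nudt7 liver was above every GFP liver, with Nudt7 replicate 2 at 86.4 and GFP replicate 2 at 84.9 CPM the closest. The means were 113.4 ± 30.96 and 69.4 ± 10.6 CPM, 1.63-fold, a log2 fold change of 0.71 (SE 0.19, 95% interval 0.30 to 1.12, edgeR adjusted p = 0.274). DESeq2 gave 0.72 with an adjusted p of 0.0413, limma-voom an adjusted p of 0.2904 and limma-voom with sample weights 0.1499. Without Nudt7 replicate 3 edgeR gave 0.52 (SE 0.13, adjusted p = 0.1598), and the groups still did not overlap.

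Reads of these 2 genes can be confused, since 13.9% of the 31-base words of Aldh1a1-201 and 13.8% of those of Aldh1a7-201 occur in the other gene. Their coding sequences, both 1503 bases without the stop codon, differed at 126 bases with no gap. The 90 coding bases that differ most (bases 310 to 399 counted from the start codon, 19 differences) are printed because such stretches decide which gene a read is given to; differing bases are in capitals.
Aldh1a1: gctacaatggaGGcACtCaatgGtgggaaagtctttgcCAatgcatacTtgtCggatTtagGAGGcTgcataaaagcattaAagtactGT
Aldh1a7: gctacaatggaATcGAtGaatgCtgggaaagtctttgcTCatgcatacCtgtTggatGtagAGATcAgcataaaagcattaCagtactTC
By contrast, the longest run that both genes share holds 100 coding bases (757 to 856), and a read inside it fits either gene. Summed into 1 gene, the pair stood at 738 ± 262 CPM in Nudt7 livers against 462 ± 83.4 CPM in GFP livers (log2 fold change 0.68, SE 0.23, edgeR adjusted p = 0.457). The ratio of Aldh1a7 to Aldh1a1 reads was 0.165 to 0.198 in Nudt7 livers and 0.147 to 0.194 in GFP livers, and these ranges overlapped.

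The 250 bases before their transcription starts were compared as well, since the pair had the 2 largest fold changes. RefSeq (GRCm38.p6) lists a start for each within 7 bases of the GENCODE start of the main transcript (for Aldh1a1 this is one of 2 listed starts); letters in capitals mark CCAAT and TATAAA, searched on both strands.
Aldh1a1, chr19:20601718-20601967, plus strand: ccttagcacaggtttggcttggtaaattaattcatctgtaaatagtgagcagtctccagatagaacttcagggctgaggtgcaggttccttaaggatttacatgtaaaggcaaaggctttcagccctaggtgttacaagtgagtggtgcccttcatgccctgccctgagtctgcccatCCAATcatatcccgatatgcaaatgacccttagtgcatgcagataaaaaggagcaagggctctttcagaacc
Aldh1a7, chr19:20727557-20727806, minus strand: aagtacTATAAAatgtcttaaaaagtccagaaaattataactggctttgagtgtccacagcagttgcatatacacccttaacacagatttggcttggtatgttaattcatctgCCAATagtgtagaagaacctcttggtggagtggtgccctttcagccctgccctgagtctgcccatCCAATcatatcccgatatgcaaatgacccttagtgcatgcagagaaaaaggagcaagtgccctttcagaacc
Counted back from the start, both windows held CCAAT at −72, and Aldh1a7 held a further one at −137 and TATAAA at −244. Of 32851 RefSeq windows of this length, 33.9% held CCAAT and 12.4% TATAAA. Also searched on both strands were a direct repeat of AGGTCA with 1 base between the copies (0.0335% of windows), TGACNNNGC (10.2%) and CACGTG (6.02%), and neither window held those letters.

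Other genes of retinoid metabolism, from storage and transport to the nuclear receptors, gave 23 tested of 26 listed, of which edgeR called 0, DESeq2 0 and limma-voom 0, with 5 at an unadjusted p under 0.05, 13 positive and a median of 0.08. Beside this list and those below, 49.8% of all genes tested were positive and 8.28% had an unadjusted p under 0.05 in edgeR. Calls over all genes were 0.117% in edgeR, 1.12% in DESeq2 and 0.0731% in limma-voom. The lists were not tested as sets. Rbp4, the plasma retinol carrier, was at 3111 ± 984 CPM in Nudt7 and 3327 ± 154 CPM in GFP livers (log2 fold change −0.10, SE 0.20, edgeR adjusted p = 0.8998), and Rdh7, a retinol dehydrogenase gene, at 0.08 (SE 0.13). Rara, a retinoic acid receptor gene, stood at 15.7 ± 1.55 against 11.9 ± 1.38 CPM (0.40, SE 0.14, edgeR adjusted p = 0.454), and Rxrb, a partner receptor gene, at 29.6 ± 3.14 against 39.3 ± 6.66 CPM (−0.41, SE 0.14, edgeR adjusted p = 0.4602).

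Aldh2 and Aldh1b1 encode the mitochondrial enzymes that oxidise acetaldehyde. Aldh2, on chromosome 5 (121566027 to 121593824, minus strand), was at 1102, 1093, 1662 and 1391 CPM in Nudt7 replicates 1 to 4 and at 1034, 1031, 1108 and 1096 CPM in GFP replicates 1 to 4. The GFP livers lay close together, Nudt7 replicates 1 and 2 lay within their range, and Nudt7 replicates 3 and 4 lay above it. The log2 fold change was 0.30 (SE 0.16, 95% interval −0.05 to 0.65, edgeR adjusted p = 0.659), and 0.18 (SE 0.12) without Nudt7 replicate 3. With transcript length averaged by TPM, Aldh2 (1286 bases) was the only member among genes with short transcripts, the class for which Nudt7 replicate 3 was shifted upward. That average rests on 4 models under 1000 bases, which held 56.9% to 69.5% of its TPM but 26.35% to 37.3% of its reads. With a length trend removed its log2 fold change was 0.19 (SE 0.12), and with effective-length offsets 0.34 (SE 0.17). The part of transcript length in the Aldh2 values was not tested. Aldh1b1, on chromosome 4 (45799022 to 45804604, plus strand), was far less abundant, with 108 to 255 reads a library. It ranged from 9.54 to 19.8 CPM in Nudt7 livers and from 7.04 to 20.6 CPM in GFP livers, so each group spanned about the same range. Its log2 fold change was 0.20 (SE 0.30, 95% interval −0.45 to 0.84, edgeR adjusted p = 0.861), and this gene had the widest interval of the 10.

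Genes that make or further process acetaldehyde and related small aldehydes gave 10 tested of 11 listed, with 9 positive, a median of 0.39 and 4 at an unadjusted p under 0.05; edgeR and limma-voom called 0, and DESeq2 called Adh4. Cat, the peroxisomal catalase, stood at 2007 ± 271 CPM in Nudt7 and 1519 ± 125 CPM in GFP livers (0.40, SE 0.15, edgeR adjusted p = 0.485), and its groups did not overlap. Adh4, an alcohol dehydrogenase gene, was at 23.5 ± 3.98 against 15.9 ± 1.16 CPM, again without overlap (0.56, SE 0.14, edgeR adjusted p = 0.239, DESeq2 adjusted p = 0.0483). Its closest livers were Nudt7 replicate 2 at 17.57 and GFP replicate 2 at 17.38 CPM. Cyp2e1, the ethanol-oxidising cytochrome P450, was at 0.16 (SE 0.18, edgeR adjusted p = 0.805).

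Aldh3a2 encodes fatty aldehyde dehydrogenase, which turns long-chain aldehydes from fatty alcohols, phytol and sphingolipids into fatty acids. It lies on chromosome 11 (61223417 to 61267464, minus strand) and was at 620, 563, 597 and 587 CPM in Nudt7 replicates 1 to 4 and at 532, 473, 426 and 547 CPM in GFP replicates 1 to 4. All 4 Nudt7 livers were above the highest GFP liver, and the spread within the Nudt7 group was small (591 ± 23.6 against 494 ± 55.7 CPM). The log2 fold change was 0.26 (SE 0.13, 95% interval −0.02 to 0.54, edgeR adjusted p = 0.6195), and it was 0.27 (SE 0.11, adjusted p = 0.557) without Nudt7 replicate 3. In TPM the group ranges were 241 to 338 and 245.5 to 290 and overlapped, with Nudt7 replicate 3 the lowest of all 8 livers on that scale.

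Genes that supply fatty aldehydes or act beside Aldh3a2 gave 15 tested of 15 listed, with 11 positive, a median of 0.09 and 6 at an unadjusted p under 0.05; edgeR and limma-voom called 0, and DESeq2 called Cyp4a12b. The fatty acid omega-hydroxylases Cyp4a14 (0.04, SE 0.18) and Cyp4a10 (0.09, SE 0.18) were the most abundant. Cyp4a12b was at 128 ± 37.3 CPM in Nudt7 and 64.9 ± 10.4 CPM in GFP livers (0.98, SE 0.21, edgeR adjusted p = 0.132, DESeq2 adjusted p = 0.00259), and Cyp4a12a at 215 ± 70.1 against 119.6 ± 24.9 CPM (0.84, SE 0.24, edgeR adjusted p = 0.325). These 2 genes are near-identical copies, so the split of reads between them is uncertain.

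**Figure D3:**
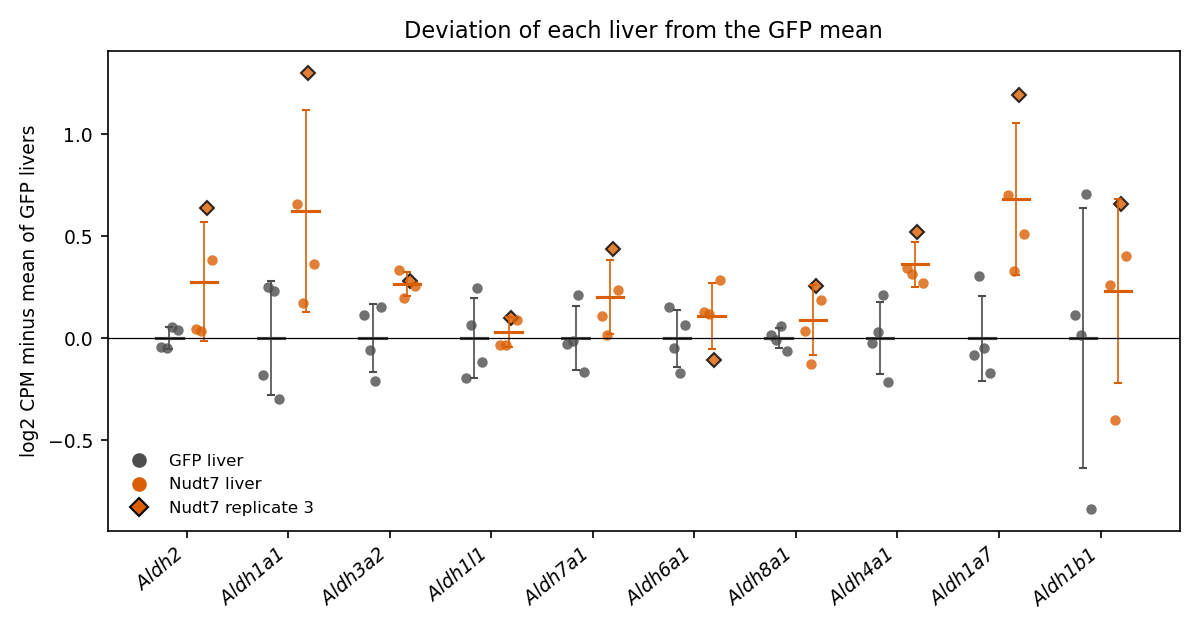
Log2 CPM of each gene in each liver minus the mean of the 4 GFP livers, with group mean and SD. Nudt7 replicate 3 (diamond) is the highest of all 8 livers for 6 of the 10 genes, and the Nudt7 livers of Aldh3a2 and Aldh4a1 lie close together above the GFP livers.

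Of the 4 members that oxidise semialdehydes of amino acid breakdown, Aldh4a1 had the largest fold change. Aldh4a1 encodes the mitochondrial enzyme that turns the proline breakdown product pyrroline-5-carboxylate into glutamate, and lies on chromosome 4 (139622866 to 139649690, plus strand). It was at 168, 165, 190 and 160 CPM in Nudt7 replicates 1 to 4 and at 131, 136, 154 and 114 CPM in GFP replicates 1 to 4. The groups did not overlap in CPM, and they did in TPM (54.9 to 67.4 and 42.4 to 68.3). The log2 fold change was 0.36 (SE 0.13, 95% interval 0.08 to 0.63, edgeR adjusted p = 0.470), and 0.31 (SE 0.11, adjusted p = 0.389) without Nudt7 replicate 3. The annotated read-through gene Gm21969 holds 45.9% of the 31-base words of Aldh4a1-201, and 0 to 8 reads a library were given to it.

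Other genes of proline and hydroxyproline metabolism gave 11 tested of 11 listed, all positive, with a median of 0.18 and 2 at an unadjusted p under 0.05; edgeR and limma-voom called 0, and DESeq2 called Oat. Oat, the ornithine aminotransferase that yields the same intermediate as proline oxidation, stood at 829 ± 24.6 CPM in Nudt7 and 612 ± 84.2 CPM in GFP livers with no overlap (0.44, SE 0.14, edgeR adjusted p = 0.386, DESeq2 adjusted p = 0.0464). Hoga1, an enzyme gene of hydroxyproline breakdown, was at 85.2 ± 24.4 against 60.4 ± 4.85 CPM (0.50, SE 0.18, edgeR adjusted p = 0.470), and Got2, the mitochondrial aspartate aminotransferase gene, at 0.17 (SE 0.13).

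Aldh6a1 encodes methylmalonate semialdehyde dehydrogenase, which forms propionyl-CoA from valine and acetyl-CoA from pyrimidine products. It lies on chromosome 12 (84430717 to 84451004, minus strand), ranged from 304 to 399.7 CPM in Nudt7 livers and from 291 to 364 CPM in GFP livers, and had a log2 fold change of 0.11 (SE 0.13, 95% interval −0.18 to 0.40, edgeR adjusted p = 0.822). Nudt7 replicate 3 was the lowest Nudt7 liver for this gene, and without it the difference was 0.19 (SE 0.11, edgeR adjusted p = 0.714). Without Nudt7 replicate 4, its highest liver, the difference was 0.05 (SE 0.14, edgeR adjusted p = 0.928), and in the TPM fit it was 0.0034 (SE 0.16). Of 18 listed and tested genes of valine and pyrimidine breakdown, edgeR, DESeq2 and limma-voom each called 0; 16 were positive, the median was 0.15 and 2 had an unadjusted p under 0.05. Abat, which makes malonate semialdehyde from beta-alanine, was at 430.1 ± 56.4 against 324 ± 32.3 CPM (0.41, SE 0.14, edgeR adjusted p = 0.4485), Agxt2 at 0.39 (SE 0.16) and Dpyd, which opens pyrimidine breakdown, at −0.02 (SE 0.14).

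Aldh7a1 encodes the aminoadipate semialdehyde dehydrogenase of lysine breakdown, which also oxidises betaine aldehyde. It lies on chromosome 18 (56509687 to 56572951, minus strand), ranged from 278 to 371 CPM in Nudt7 livers and from 245 to 318 CPM in GFP livers, and had a log2 fold change of 0.20 (SE 0.14, 95% interval −0.10 to 0.50, edgeR adjusted p = 0.706). Without Nudt7 replicate 3, its highest liver, the value was 0.13 (SE 0.11). Phax, on the other strand, overlaps Aldh7a1 and Bbof1 overlaps Aldh6a1; they held 181 to 621 and 45 to 92 reads a library, and whether counting used strand is not given. Of 12 lysine and betaine genes listed and tested, edgeR, DESeq2 and limma-voom each called 0; 10 were positive, the median was 0.10 and 1 had an unadjusted p under 0.05. Bhmt, the betaine methyltransferase gene, was at 0.37 (SE 0.19), Gcdh, the glutaryl-CoA dehydrogenase gene, at 0.36 (SE 0.16) and Aass, which opens lysine breakdown, at −0.12 (SE 0.21).

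Aldh8a1 encodes the aminomuconate semialdehyde dehydrogenase of the kynurenine route of tryptophan. It lies on chromosome 10 (21377291 to 21396585, plus strand) and ranged from 184 to 240.2 CPM in Nudt7 livers and only from 192 to 209 CPM in GFP livers. The log2 fold change was 0.10 (SE 0.12, 95% interval −0.17 to 0.36, edgeR adjusted p = 0.839). Of 11 tested genes of tryptophan and kynurenine metabolism (12 listed), edgeR, DESeq2 and limma-voom each called 0; 6 were positive, the median was 0.08 and 3 had an unadjusted p under 0.05, in both directions. Acmsd, whose product is the aldehyde that Aldh8a1 uses, was at 17.7 ± 1.53 CPM in Nudt7 livers against 28.6 ± 8.04 CPM in GFP livers (−0.69, SE 0.19, edgeR adjusted p = 0.281), with every Nudt7 liver below every GFP liver. The closest were Nudt7 replicate 3 at 19.35 and GFP replicate 1 at 19.66 CPM. Qprt, which leads the competing branch to NAD, was at 107 ± 35.6 against 68.6 ± 5.43 CPM (0.64, SE 0.20, edgeR adjusted p = 0.386), with every Nudt7 liver above. For Qprt, Nudt7 replicate 3 was highest at 158.4 CPM, and Nudt7 replicate 4 at 79.17 and GFP replicate 1 at 74.83 CPM were closest. Tdo2, the first enzyme of the route, was at 0.08 (SE 0.20) and Kmo, the kynurenine hydroxylase, at −0.0096 (SE 0.11).

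Aldh1l1 encodes 10-formyltetrahydrofolate dehydrogenase, an abundant cytosolic enzyme that releases the formyl group of folate as carbon dioxide. It lies on chromosome 6 (90486427 to 90600203, plus strand) and was at 548, 550, 602 and 598 CPM in Nudt7 replicates 1 to 4 and at 491, 587, 667 and 519 CPM in GFP replicates 1 to 4. The Nudt7 values lay inside the range of the GFP values, and the log2 fold change was 0.02 (SE 0.13, 95% interval −0.27 to 0.32, edgeR adjusted p = 0.974). Of 19 listed and tested folate genes, edgeR, DESeq2 and limma-voom each called 0; 13 were positive, the median was 0.15 and 1 had an unadjusted p under 0.05. Gnmt, the glycine methyltransferase gene, was at 0.37 (SE 0.23), Sardh, the sarcosine dehydrogenase gene, at 0.10 (SE 0.14) and the scarce Mthfd2 at −0.92 (SE 0.39, edgeR adjusted p = 0.571).

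The remaining mouse Aldh genes on a list of 11 were mostly scarce, and 6 were tested, of which edgeR, DESeq2 and limma-voom each called 0, 0 had an unadjusted p under 0.05 and 2 were positive. Aldh9a1, which takes gamma-trimethylaminobutyraldehyde in carnitine synthesis, was the most abundant at 132 ± 10.4 TPM in Nudt7 and 119 ± 9.35 TPM in GFP livers (log2 fold change in CPM 0.29, SE 0.13, edgeR adjusted p = 0.5995). Aldh5a1, the succinate semialdehyde dehydrogenase gene, stood at 16.6 ± 2.70 and 16.3 ± 1.74 TPM, and Aldh1l2, the mitochondrial relative of Aldh1l1, at 0.923 ± 0.594 and 1.53 ± 0.472 TPM. Aldh1a2, Aldh3a1, Aldh3b2, Aldh3b3 and Aldh18a1 did not pass the filter, with at most 13 reads in any library.

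Zonation genes were counted because several of these enzymes differ between the liver's zones. Of 14 pericentral and Wnt-dependent genes tested, 12 were positive with a median of 0.39 and 6 at an unadjusted p under 0.05, and edgeR called 0, limma-voom 0 and DESeq2 1 (Oat). Over all genes tested, 49.8% were positive, 8.28% had an unadjusted p under 0.05 and DESeq2 called 1.12%. Oat and Cyp2e1 are on this list and were also counted in lists above. Lect2 was at 0.85 (SE 0.28, edgeR adjusted p = 0.444). Of 11 periportal genes tested, 3 were positive, with a median of −0.14 and 2 at an unadjusted p under 0.05, and edgeR, limma-voom and DESeq2 each called 0. The periportal list includes the member Aldh1b1, which is among the positive genes at 0.20 (SE 0.30). Pck1, a gluconeogenic enzyme gene, was at −0.57 (SE 0.23), Etnppl at −0.61 (SE 0.18) and Ass1, of the urea cycle, at −0.14 (SE 0.16). The part of zonation in the members' values was not tested.

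Reads were also followed by annotated transcript. The 10 genes had 51 transcripts in the files, of which 34 were tested, 0 were called by edgeR over all 31071 transcripts tested (0.00644% of all were), and 5 had an unadjusted p under 0.05 (4.51% of all). DESeq2 and limma-voom also called 0. The 5 were the main transcripts of Aldh1a1, Aldh1a7, Aldh3a2 and Aldh4a1, with log2 fold changes of 0.72 (SE 0.27), 0.75 (SE 0.21), 0.31 (SE 0.13) and 0.43 (SE 0.13), and the minor Aldh3a2-206 (1.18, SE 0.38), which held at most 1.29% of the gene's TPM in any liver. Aldh3a2-202, of 3091 bases, held 76.9% ± 1.90 of Aldh3a2's TPM in Nudt7 livers and 75.5% ± 2.23 in GFP livers, and a transcript of 1886 bases 13.5% ± 3.26 and 14.7% ± 2.16. Aldh1l1-201 held 78.6% ± 3.39 and 77.6% ± 3.28 of the TPM of Aldh1l1, and a transcript marked for nonsense-mediated decay, Aldh1l1-207, 12.2% ± 2.14 and 10.2% ± 2.07. Aldh2 was split most: 4 transcripts under 1000 bases took 56.9% to 69.5% of its TPM but 26.3% to 37.3% of its reads, so much of its TPM rests on reads assigned to short models; the files do not give the uncertainty of that assignment. The group means of the Aldh3a2 and Aldh1l1 shares given here differed by less than the larger of their 2 SDs.

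**Figure D4:**
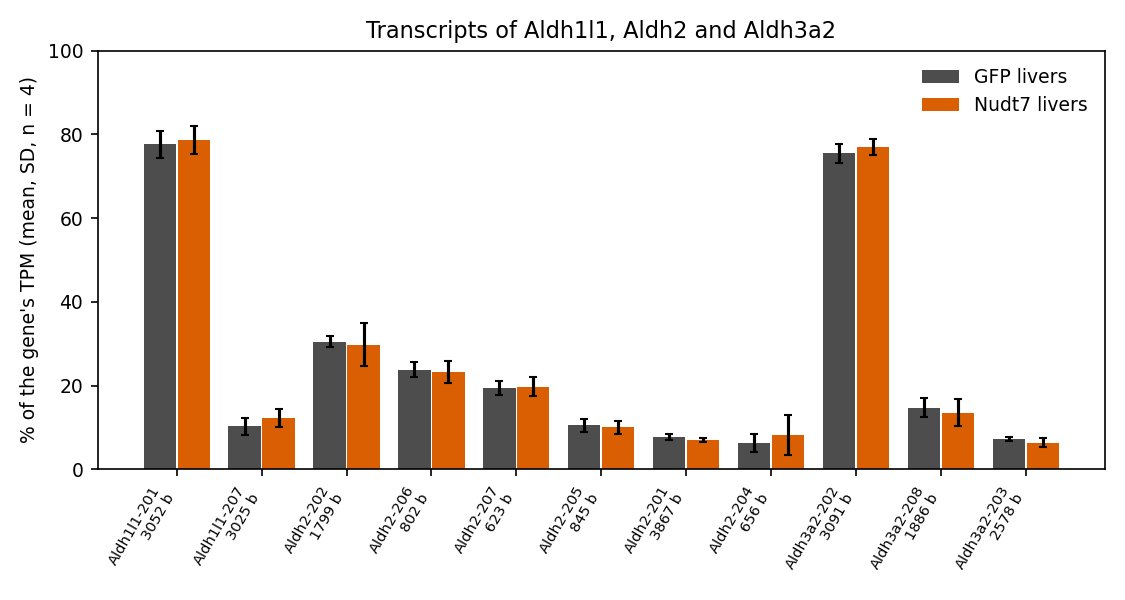
Share of each gene's TPM held by its transcripts in GFP and Nudt7 livers (mean and SD, n = 4; transcripts with at least 5% in either group; b, bases). Aldh1l1 and Aldh3a2 each have 1 main transcript at about 77% while Aldh2 is spread over 6 transcripts with at least 5%, the largest at 29.8% in Nudt7 and 30.4% in GFP livers.

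Across the livers, Nudt7 replicate 3 was highest for 6 of the 10 members and GFP replicate 4 lowest for 5. The median deviation of the 10 genes from the GFP mean was 0.19, 0.077, 0.48 and 0.28 log2 units in Nudt7 replicates 1 to 4 and −0.027, 0.0015, 0.13 and −0.14 in GFP replicates 1 to 4. Nudt7 replicate 2 thus lay among the GFP livers on this summary. Summed over the 10 genes, reads came to 3720 to 5098 CPM in Nudt7 livers and 3437 to 3714 CPM in GFP livers, where the groups came close but did not overlap, unlike the sums in TPM; without Aldh2 the sums were 2627 to 3435 and 2342 to 2606 CPM. These sums were not tested. Without Nudt7 replicate 3 the members' median fold change was 0.18, with 0 called, and the groups of 3 members, again Aldh1a7, Aldh3a2 and Aldh4a1, did not overlap, beside 4.65% of all genes.

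**Figure D5:**
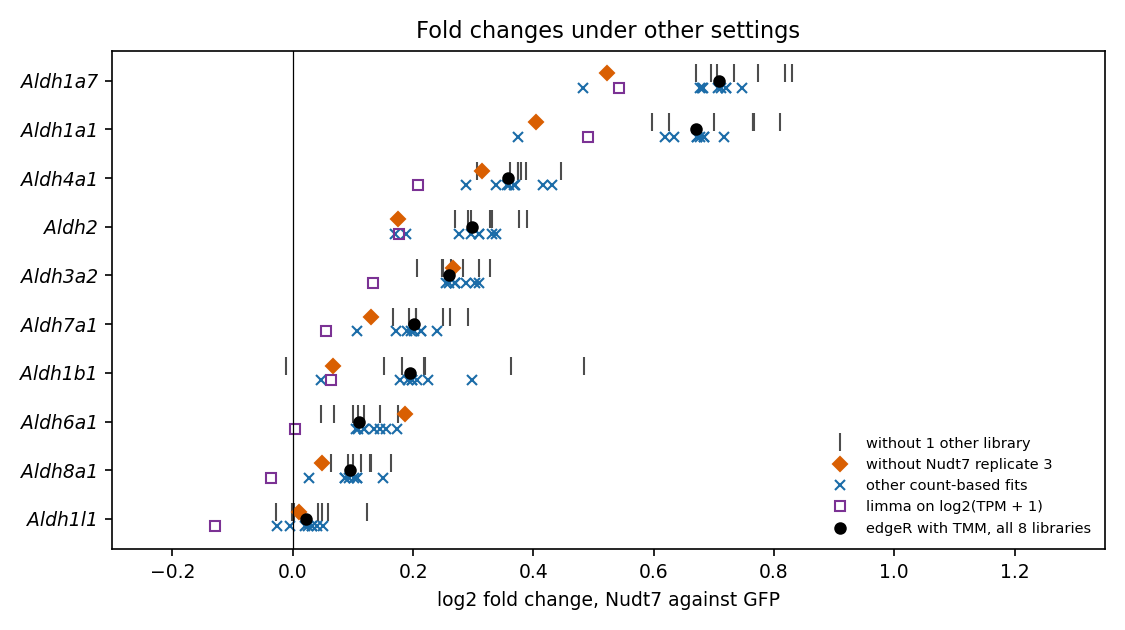
Log2 fold change of each gene with all 8 libraries (black), without each library in turn, and under other fits. Without Nudt7 replicate 3 Aldh1a1 moves from 0.67 to 0.40, whereas Aldh3a2 stays at 0.26 to 0.27; the TPM fit lies to the left of the others for most genes.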

How the data were processed

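Per the file headers, the deposited files hold, for each of 109282 transcripts, Salmon's estimated counts (not normalized), TPM and the transcript's length and effective length. The submitters' processing notes name FastQC, Salmon, DESeq2 and the build GRCm38, with no versions or options. Per the labels' protocols, libraries came from 500 ng of RNA with a stranded KAPA kit and 9 PCR cycles. Ensembl identifiers named 107987 transcripts in GENCODE M21 (98.8%); the rest (0.552% to 1.06% of reads) stayed out. Gene totals of the estimated counts were rounded. The test was edgeR 4.0.16 (quasi-likelihood, robust, TMM, filterByExpr, two-sided, Benjamini-Hochberg over 13678 genes, threshold 0.05), with no covariate; the same test was run on 31071 transcripts. Alternatives were RLE scaling, no filter, DESeq2 1.42.0, limma 3.58.1 (voom, with and without sample weights, and log2(TPM + 1) for genes with a mean of at least 1 TPM), effective-length offsets, removal of a length trend, and leaving out each library. Fits were tested on simulated data. Transcripts with 5% or more of a member's TPM in either group numbered 19, and the text names only some of them. The named genes are the 10 members, Nudt7, and the 2 most abundant and the 2 of smallest p in each pathway list. Aldh3a2-206, the genes that overlap a member and Aldh genes below the filter were named after their values were seen. 1 gene that this rule names is not reported here. Lists of Kupffer cell, endothelial, stellate, adipocyte and pancreas, and lymphocyte markers were summed too. Members and lists were chosen with earlier results of these data known.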

Additional observations from a re-analysis of the deposited data

How the results depend on the processing

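Of 172 values of single members under other settings, 164 kept their direction and side of the threshold, 7 reversed and 1, Aldh1a7 in DESeq2 (0.72), passed. The reversals were all near 0: Aldh1l1 was at −0.027 in limma-voom with sample weights, −0.0051 with effective-length offsets and −0.13 in the TPM fit, and −0.027 to 0.12 when 1 library was left out; Aldh8a1 was at −0.036 in the TPM fit; Aldh1b1 was at −0.012 to 0.48 when 1 library was left out, the lowest without GFP replicate 4. DESeq2 called 1 of the 10 members higher and all other count-based fits 0. The members' median stayed between 0.18 and 0.32 when 1 library was left out, and the edgeR adjusted p of Aldh1a7 ranged there from 0.1598 to 0.6375. Genes called higher numbered 6, and 15 without a filter, 87 in DESeq2, 58 in limma-voom with sample weights, 20 with the length trend removed and 1 to 8 with 1 library left out. Genes called lower numbered 10, and 12 without a filter, 66 in DESeq2, 5 in limma-voom and 42 with sample weights. They numbered 6 with effective-length offsets and 1 to 12 with 1 library left out. Transcripts called higher numbered 2, with 84 in DESeq2 and 0 to 4 with 1 library left out. Those called lower numbered 0, with 67 in DESeq2 and 0 to 2 with 1 library left out. The causes of these differences were not tested. The transcript alternatives and the fits of main transcripts alone were chosen after seeing the data. No paired analysis was possible because the labels give each mouse a number of its own; replicates 1 to 4 were numbered in the order of deposit and pair no livers.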

Other observations

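Markers of other liver cells, summed per library, were compared as values only. The 12 Kupffer cell markers summed to 164 to 366 CPM in Nudt7 livers and 188 to 293 CPM in GFP livers, and the 13 stellate cell markers to 364 to 432 and 356 to 436 CPM. The 12 sinusoidal endothelial markers summed to 672 to 772 CPM in Nudt7 livers and 764 to 819.8 CPM in GFP livers, with 9 of 12 lower on average in Nudt7 livers. The lymphocyte markers summed to at most 9.31 CPM, and the adipocyte and pancreas markers, 2 of them at 0 throughout, to at most 8.65 CPM in any library.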
